A study of Mus musculus with 4 samples.

Results

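A set of 9 genes commonly used as markers of classical Ly6Chi monocytes were followed through RNA-seq of sorted mouse blood monocytes. They are Ly6c1, Ly6c2, Chil3, F13a1, Vcan, Hp, Lyz1, Lyz2 and Cd177, taken by symbol, and all 9 were found among the 23995 gene symbols of the deposited table. Blood Ly6Clo and Ly6Chi monocytes were sorted from control mice (Rbpj+/+ Lyz2 cre/cre) and RBP-J-deficient mice (Rbpj fl/fl Lyz2 cre/cre), and each of the 4 groups holds 1 library. The control libraries are titled WT in the records and carry the genotype label Lyz2-Cre, so Cre in the Lyz2 gene is common to all groups. Cre from this gene is active in neutrophils and macrophages as well as monocytes, and how many mice gave RNA to each library is not given in the sources used here. With 1 library per group no difference has a replicate check, and no test was made.

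Classical monocytes leave the bone marrow with a high level of the surface protein Ly6C and enter inflamed tissue. Many of them convert in blood to Ly6Clo nonclassical monocytes, which patrol the vessel wall and lose much of the classical transcript set on the way. RBP-J is the DNA-binding factor of Notch signalling, a pathway known to favour this conversion in mice. The study that made these data transferred bone marrow Ly6Chi monocytes of both genotypes and reported equal conversion with and without RBP-J.

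Values are FPKM (fragments scaled to transcript length and to the mapped fragments of the library), which allows levels to be set side by side between genes. Differences are log2 ratios of (FPKM + 1), on which changes at low levels come out too small. FPKM summed to between 711555 and 885652 per library, highest in RBP-J-deficient Ly6Clo, and 8985 to 9394 genes reached an FPKM of 1. The depth of each library is unknown. The FPKM of Rbpj, the deleted gene, was 8.30 in Ly6Clo monocytes of control mice against 2.43 without RBP-J, and 14.4 against 2.85 in Ly6Chi monocytes.

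Several of the 9 genes have close copies, which bears on how their reads were assigned. Ly6c1 and Ly6c2 encode the 2 forms of Ly6C, a small surface protein held by a lipid anchor. They lie side by side on chromosome 15 of GRCm38, minus strand, Ly6c1 from 75044018 to 75048837 and Ly6c2 from 75108161 to 75111949. Lyz1 and Lyz2 encode lysozyme, which cuts bacterial cell walls, and are neighbours on chromosome 10, minus strand, Lyz2 from 117277541 to 117282272 and Lyz1 from 117287795 to 117292868. Their coding sequences in GENCODE differ at 9 of 393 bases for the Ly6c pair and at 22 of 444 bases for the lysozyme pair. The first coding exon of each is shown from the start codon, 5′ to 3′ on the coding strand, because these bases tell the copies apart. Capitals mark the bases that differ within a pair. The intervals are chr15:75048442-75048511 for Ly6c1, chr15:75111598-75111667 for Ly6c2, chr10:117292703-117292838 for Lyz1 and chr10:117282107-117282242 for Lyz2. The start codon of Lyz2 is where Cre is inserted in these mice, and the sequence given is the reference, not the altered allele.
Ly6c1: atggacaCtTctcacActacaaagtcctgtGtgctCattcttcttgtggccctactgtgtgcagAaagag
Ly6c2: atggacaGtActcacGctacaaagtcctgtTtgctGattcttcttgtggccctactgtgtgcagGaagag
Lyz1: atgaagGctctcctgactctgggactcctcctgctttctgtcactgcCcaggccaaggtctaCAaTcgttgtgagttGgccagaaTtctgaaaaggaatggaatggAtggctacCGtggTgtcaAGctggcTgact
Lyz2: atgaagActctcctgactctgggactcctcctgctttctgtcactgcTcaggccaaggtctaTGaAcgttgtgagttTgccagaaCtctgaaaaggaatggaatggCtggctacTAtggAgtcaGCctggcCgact

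Of all stretches of 50 bases in the longest coding transcript, 36.7% of those in Ly6c1 and 33.0% of those in Ly6c2 also occurred in a transcript of another gene. The share was 29.4% for Chil3, whose copy is Chil4, 16.1% for Lyz1, 15.4% for Lyz2 and 5.74% for Cd177. No such stretch was found for F13a1, Vcan or Hp. At 100 bases the shares fell to between 1.87% and 15.8% for the 6 genes with copies. The split of FPKM within the Ly6c and lysozyme pairs, and between Chil3 and Chil4, is therefore uncertain, while their sums are less exposed to it.

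The first comparison described the 9 genes in the 2 subsets of control mice. These genes and the further gene lists were chosen with earlier results of these data known. The counts are therefore no test of the choice. All 9 had a higher FPKM in control Ly6Chi than in control Ly6Clo monocytes, 7 by at least 2-fold on (FPKM + 1) and 6 past the higher threshold of 5.7-fold. Among all 23995 genes 3.31% were at least 2-fold higher, and among the 10240 expressed genes, those reaching an FPKM of 1 in some library, 7.75% were. Past 5.7-fold the shares were 0.425% of all and 0.996% of expressed genes. A higher value of any size was found in 49.8% of expressed genes. The median log2 ratio of the 9 was 4.93, against 0 over those 10240 genes. The sort used Ly6C protein, so the values of Ly6c1 and Ly6c2 only describe the gate. Lyz1 and Lyz2 were less than 2-fold apart between the control subsets, and these data do not set them out as markers of Ly6Chi cells.

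**Figure D1:**
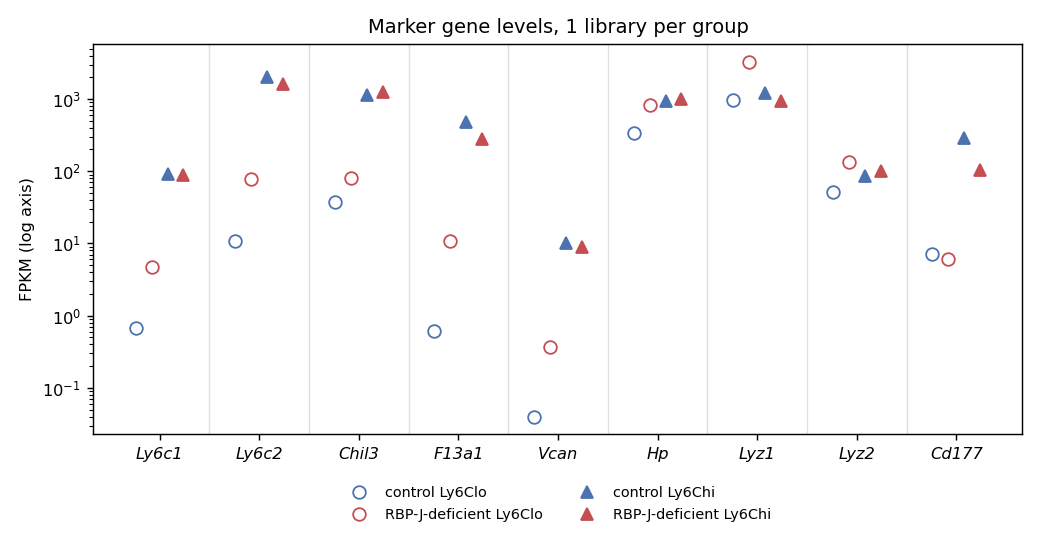
FPKM of the 9 marker genes on a log axis, 1 point per library, open circles for Ly6Clo and filled triangles for Ly6Chi, blue for control and red for RBP-J-deficient. For 6 genes both Ly6Chi points lie far above both Ly6Clo points, whereas Lyz1 is highest in RBP-J-deficient Ly6Clo at 3286.

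Ly6c2 had an FPKM of 10.9 in control Ly6Clo, 78.3 in RBP-J-deficient Ly6Clo, 2013 in control Ly6Chi and 1594 in RBP-J-deficient Ly6Chi monocytes. Ly6c1 had 0.677, 4.76, 91.0 and 89.6 in the same order. Both genes kept the order control Ly6Clo, RBP-J-deficient Ly6Clo, RBP-J-deficient Ly6Chi, control Ly6Chi. In Ly6Clo monocytes the log2 ratio of RBP-J-deficient over control was 2.73 for Ly6c2 and 1.78 for Ly6c1. In Ly6Chi monocytes it was -0.34 and -0.02. The sum of both FPKM, which depends less on how reads were split between them, was 11.6, 83.0, 2104 and 1684. Ly6c2 exceeded Ly6c1 in every library, by 16.2-fold in control Ly6Clo, 16.5-fold in RBP-J-deficient Ly6Clo, 22.1-fold in control Ly6Chi and 17.8-fold in RBP-J-deficient Ly6Chi. The Ly6Clo cells were gated as low for the Ly6C protein, and their transcript in RBP-J-deficient mice stayed 20.4-fold below that of Ly6Chi cells of the same genotype for Ly6c2.

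Chil3, a secreted chitinase-like protein also called Ym1, lies on chromosome 3 from 106147554 to 106167564. Its FPKM was 37.0 in control Ly6Clo, 79.9 in RBP-J-deficient Ly6Clo, 1153 in control Ly6Chi and 1257 in RBP-J-deficient Ly6Chi monocytes. Both Ly6Chi libraries stood more than 10-fold above both Ly6Clo libraries. The genotype log2 ratio was 1.09 in Ly6Clo and 0.12 in Ly6Chi. The first passed 2-fold on the deposited scale only narrowly and was 0.80 after rescaling to TPM (all libraries brought to the same sum), and the second turned to -0.00049 when housekeeping genes set the scale.

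F13a1 encodes the A chain of coagulation factor XIII, which cross-links fibrin, and lies on chromosome 13 from 36867178 to 37050244. Its FPKM was 0.611 in control Ly6Clo, 10.7 in RBP-J-deficient Ly6Clo, 480 in control Ly6Chi and 283 in RBP-J-deficient Ly6Chi monocytes. The subset log2 ratio in control mice was 8.22 and the genotype log2 ratio in Ly6Clo cells was 2.86, both above those of Ly6c2. With a pseudocount of 5 they were 6.43 and 1.48, below the 6.98 and 2.38 of Ly6c2, since F13a1 was under an FPKM of 1 in control Ly6Clo. In Ly6Chi cells the genotype log2 ratio was -0.76. The subsets were thus nearer to each other in RBP-J-deficient mice from both sides. F13a1 is also a platelet transcript, and platelet genes were higher in both Ly6Chi libraries, as given beside the other cell types.

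Vcan encodes versican, a large proteoglycan of the extracellular matrix, and lies on chromosome 13 from 89655310 to 89742512. It was the lowest of the 9 per length in every library, with an FPKM of 0.0398 in control Ly6Clo, 0.373 in RBP-J-deficient Ly6Clo, 10.2 in control Ly6Chi and 8.93 in RBP-J-deficient Ly6Chi. Neither Ly6Clo library reached an FPKM of 1. The genotype log2 ratio in Ly6Clo was 0.40 with a pseudocount of 1 and 1.76 with 0.1, so its size rests on that choice. In Ly6Chi cells it was -0.18.

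Hp encodes haptoglobin, which binds free haemoglobin, and lies on chromosome 8 from 109575128 to 109579172. Its FPKM was 333.5 in control Ly6Clo, 818 in RBP-J-deficient Ly6Clo, 938 in control Ly6Chi and 1004 in RBP-J-deficient Ly6Chi monocytes. Control Ly6Clo was the one low library. The genotype log2 ratio was 1.29 in Ly6Clo, and 0.99 after rescaling to TPM. In Ly6Chi it was 0.098, and its direction turned under TPM and housekeeping scaling. The subset log2 ratio was 1.49 in control mice and 0.29 without RBP-J.

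Lyz1 had an FPKM of 985 in control Ly6Clo, 3286 in RBP-J-deficient Ly6Clo, 1227 in control Ly6Chi and 952 in RBP-J-deficient Ly6Chi monocytes. RBP-J-deficient Ly6Clo stood above the other libraries, and Lyz1 ranked 28 among all genes there against 81 in control Ly6Clo. The genotype log2 ratio was 1.74 in Ly6Clo and -0.37 in Ly6Chi. The subset log2 ratio was 0.32 in control mice and -1.79 in RBP-J-deficient mice, so Lyz1 was higher in the Ly6Clo than in the Ly6Chi library there.

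Lyz2, the usual lysozyme of mouse macrophages and the carrier of Cre, had an FPKM of 52.0 in control Ly6Clo, 134 in RBP-J-deficient Ly6Clo, 84.8 in control Ly6Chi and 102 in RBP-J-deficient Ly6Chi. RBP-J-deficient Ly6Clo was the highest library, as for Lyz1, and control Ly6Clo the lowest, unlike for Lyz1. The genotype log2 ratio was 1.35 in Ly6Clo and 0.26 in Ly6Chi. Lyz1 exceeded Lyz2 by 18.9-fold, 24.5-fold, 14.5-fold and 9.36-fold in control Ly6Clo, RBP-J-deficient Ly6Clo, control Ly6Chi and RBP-J-deficient Ly6Chi. Every mouse here carried Cre in both copies of Lyz2, so no library shows the level of an unaltered Lyz2 gene. The sum of both lysozyme genes was 1037, 3420, 1312 and 1054 in the same order.

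Cd177 encodes a surface protein of neutrophils that binds the endothelial adhesion molecule PECAM-1, and lies on chromosome 7 from 24743983 to 24760311. Its FPKM was 7.07 in control Ly6Clo, 6.04 in RBP-J-deficient Ly6Clo, 289 in control Ly6Chi and 103 in RBP-J-deficient Ly6Chi monocytes. Cd177 was the 1 member that was not higher in RBP-J-deficient Ly6Clo cells, with a genotype log2 ratio of -0.20 that turned to 0.12 once the trend with GC content was subtracted. It was also the 1 member past 2-fold in Ly6Chi cells, with a log2 ratio of -1.47.

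**Figure D2:**
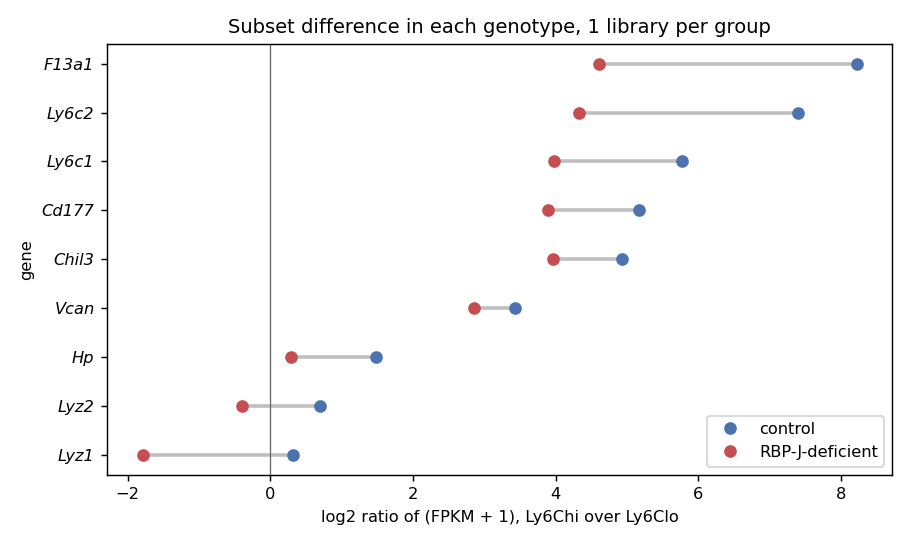
Log2 ratio of (FPKM + 1), Ly6Chi over Ly6Clo, for each marker gene, blue for control and red for RBP-J-deficient mice, 1 library per group. The red point lies left of the blue point for all 9 genes, and for Lyz1 and Lyz2 it lies below 0.

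The next comparison set the genotypes against each other in each subset. In Ly6Clo monocytes 8 of 9 genes, all but Cd177, were higher in the RBP-J-deficient library, 7 of them by at least 2-fold. Among all genes 3.83% were at least 2-fold higher, and 8.97% among the 10240 expressed genes. A higher value of any size was found in 51.3% of expressed genes. Past 5.7-fold there were 2 of the 9, Ly6c2 and F13a1, against 0.117% of all and 0.273% of expressed genes. The median log2 ratio of the 9 was 1.35, against 0.023 over the expressed genes. Rescaling to TPM shifts this comparison by -0.30 on the log2 scale and left 5 of 9 genes at least 2-fold higher, against 2.26% of all genes.

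In Ly6Chi monocytes 3 of 9 genes were higher and 6 lower in the RBP-J-deficient library. Among expressed genes 50.4% were higher, so this split of 9 is near the background. The median log2 ratio of the 9 was -0.18, against 0.0041 over the expressed genes. Of the 3 higher ones, Chil3 and Hp changed direction under other scalings. No gene of the 9 was at least 2-fold higher, where 1.13% of all genes and 2.64% of expressed genes were, so a count of 0 among 9 is near the background. Cd177 alone was at least 2-fold lower, where 1.95% of all genes and 4.56% of expressed genes were. For Ly6c1, Ly6c2, F13a1, Vcan and Lyz1 the genotype difference was positive in Ly6Clo and negative in Ly6Chi cells.

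**Figure D3:**
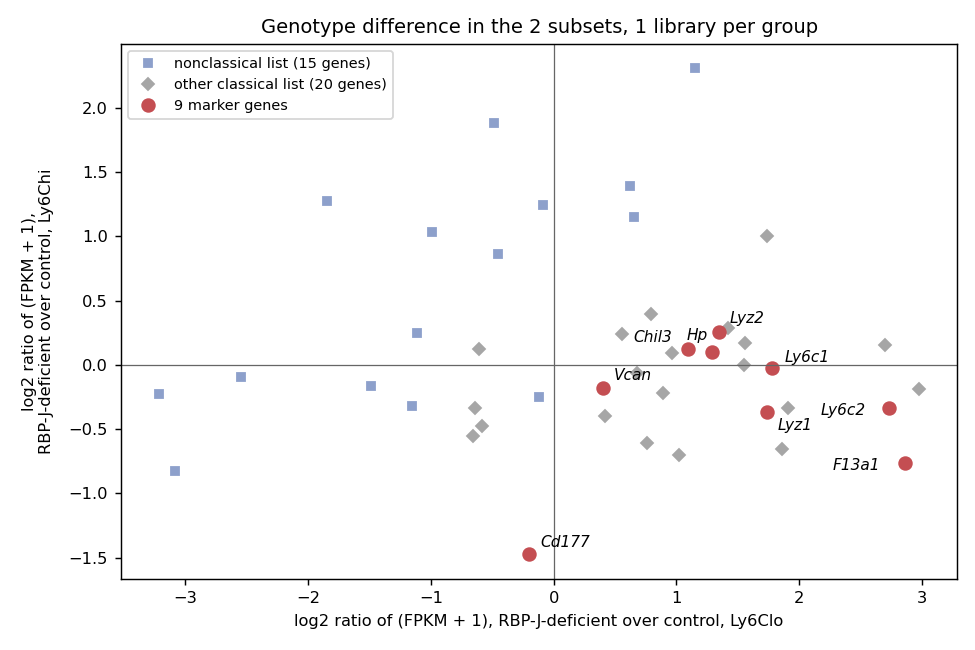
Genotype difference as the log2 of the (FPKM + 1) ratio, RBP-J-deficient to control, in Ly6Clo (horizontal) and Ly6Chi monocytes (vertical), with 1 point per gene and 1 library per group. The marker genes (red) spread to the right along the horizontal axis, up to 2.86 for F13a1, while Cd177 sits lowest at -1.47.

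Within RBP-J-deficient mice, 6 of 9 genes were still at least 2-fold higher in Ly6Chi than in Ly6Clo cells, against 4.51% of all and 10.6% of expressed genes. Lyz1 was at least 2-fold lower in Ly6Chi, as were 3.59% of all and 8.41% of expressed genes. The median log2 ratio of the 9 was 3.89, against -0.020 over the expressed genes. For all 9 genes the subset log2 ratio was smaller than in control mice. The control libraries and RBP-J-deficient libraries enter both kinds of comparison, so these values are not independent of the genotype differences above.

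On the linear FPKM scale the RBP-J-deficient Ly6Clo library lay a small part of the way from control Ly6Clo to control Ly6Chi for the genes that separated the subsets. That share was 4.52% for Ly6c1, 3.36% for Ly6c2, 3.85% for Chil3, 2.1% for F13a1 and 3.27% for Vcan, and -0.37% for Cd177. These shares were close to each other except for Cd177. For Hp it was 80.2%, and Lyz1 and Lyz2 lay beyond the control Ly6Chi level. In a sorted population a few cells with much transcript and many cells with little cannot be told apart. Ccr2, the chemokine receptor of classical monocytes, named here after its value was seen, lay at 63.5%.

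Other genes put the 9 in context. Of 20 further classical monocyte genes, 16 were at least 2-fold higher in control Ly6Chi than in control Ly6Clo. That held for 3.31% of all and 7.75% of expressed genes. In RBP-J-deficient over control Ly6Clo, 9 of the 20 were at least 2-fold higher, against 3.83% of all and 8.97% of expressed genes. The median genotype log2 ratio of the 20 was 0.92 in Ly6Clo and -0.12 in Ly6Chi. Of 15 nonclassical genes, 7 were at least 2-fold lower and 1 higher in RBP-J-deficient Ly6Clo cells, with a median of -0.99, and 4.73% of all and 11.1% of expressed genes were at least 2-fold lower there. The higher one was the scavenger receptor Cd36, picked out after its value was seen, at 426 FPKM in the control library and 945 in the other. In Ly6Chi cells 7 of the 15 were at least 2-fold higher, against 1.13% of all and 2.64% of expressed genes. The median of the 15 there was 0.87.

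The nearest genes by the Euclidean distance of centred log2(FPKM + 1) over the 4 libraries, among 4836 genes whose mean FPKM reached 10, were partly members themselves. F13a1 and Ly6c2 were each other's nearest, at 0.63. Ly6c1 was nearest to Mmp8, a collagenase, at 0.48, then to Fn1, which encodes fibronectin, and to Chil3. Mmp8 had an FPKM of 1.3, 7.62, 195 and 155 in control Ly6Clo, RBP-J-deficient Ly6Clo, control Ly6Chi and RBP-J-deficient Ly6Chi, and Fn1 had 0.284, 3.66, 110 and 69.7. Chil3 was nearest to Smim5, and Vcan to Fgl2. The genes nearest to Hp were Ncoa7, Mpc1 and Fam213b. Tagap1, Gda and Srp19 were nearest to Lyz1, and Zfp672, Minos1 and 3110009E18Rik to Lyz2. For Cd177 no gene lay closer than 0.90.

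The neighbours of Ly6c1 and Ly6c2 in the Ly6 gene cluster had other patterns. Ly6a, which encodes Sca-1, had an FPKM of 59.7 in control Ly6Clo, 114 in RBP-J-deficient Ly6Clo, 9.01 in control Ly6Chi and 38.7 in RBP-J-deficient Ly6Chi. Ly6i had 240, 341, 52.9 and 173 in the same order, and Ly6d had 17.4, 10.5, 1.46 and 3.68. These 3 were higher in Ly6Clo than in Ly6Chi cells of control mice, opposite to Ly6c1 and Ly6c2. Ly6e, the most abundant of the listed neighbours, lay between 1954 and 2288 in all libraries. Ly6k was listed at 0 in 3 libraries and at 2.57 in RBP-J-deficient Ly6Chi. Of 5 chitinase-like genes found besides Chil3, Chil4 reached 12.4 in control Ly6Chi and 17.8 in RBP-J-deficient Ly6Chi, and Chil1 reached 5.81 and 6.44, while both were at or below 1.21 in the Ly6Clo libraries.

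A list of 10 genes whose products act with the markers or beside them was also read. Among them, Pecam1, the binding partner of Cd177, had an FPKM of 54.1, 55.1, 4.26 and 6.10 in control Ly6Clo, RBP-J-deficient Ly6Clo, control Ly6Chi and RBP-J-deficient Ly6Chi. Pecam1 was thus high where Cd177 was low. F13b, which encodes the carrier chain of factor XIII, was listed at 0 in all libraries, and Cd163, the haptoglobin-haemoglobin receptor, reached an FPKM of 1 in control Ly6Chi alone. In RBP-J-deficient over control Ly6Clo cells 1 of the 10 was at least 2-fold higher, where 3.83% of all and 8.97% of expressed genes were. None was at least 2-fold lower, where 4.73% and 11.1% were. Both counts are near the shares of expressed genes. The higher one was Prtn3, which encodes a protease of neutrophils. It was listed at 0 in control Ly6Clo and at 2.80, 29.5 and 25.0 in the other libraries in that order. Pecam1, F13b, Cd163 and Prtn3 were chosen for mention after their values were seen.

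Transcripts of other blood cells moved with some of the differences. The 12 neutrophil genes found of 13 summed to 270.2 in control Ly6Clo, 169.7 in RBP-J-deficient Ly6Clo, 1387 in control Ly6Chi and 1081 in RBP-J-deficient Ly6Chi. Most of this was S100a8 and S100a9, which are also in the classical list, and the other 10 summed to 38.6, 20.9, 99.9 and 74.9. Mpo was listed at 0 throughout, Ltf at 0 in 3 libraries and 0.0202 in control Ly6Clo, and Camp and Ngp reached 5.52 and 4.87 in RBP-J-deficient Ly6Chi but no more than 0.185 elsewhere. Without Csf3r, which went from 30.4 to 6.50 in Ly6Clo, the remaining 9 summed to 8.15, 14.4, 49.2 and 46.9. The sum was thus lower without RBP-J in both subsets with Csf3r in it, and higher in Ly6Clo without it. That rise rests on Retnlg, which went from 4.33 to 12.2 in Ly6Clo, while Cxcr2, Mmp9 and Lcn2 fell. Of the 12 neutrophil genes, 7 were lower and 2 higher in RBP-J-deficient than in control Ly6Clo. Among the 10240 expressed genes 4938 were lower and 5257 higher. The part of neutrophil transcripts in the Cd177 difference was not tested.

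The 8 platelet genes summed to 133.7 in control Ly6Clo, 129.2 in RBP-J-deficient Ly6Clo, 395 in control Ly6Chi and 321 in RBP-J-deficient Ly6Chi. None was at 0 in any library, and Pf4 alone had 56.5, 51.4, 156 and 120 in control Ly6Clo, RBP-J-deficient Ly6Clo, control Ly6Chi and RBP-J-deficient Ly6Chi. Pf4 and Ppbp made up most of the sum. In RBP-J-deficient over control Ly6Clo, 6 of the 8 were lower, 2 of them by at least 2-fold, Gp9 from 6.11 to 1.16 and Itga2b from 3.10 to 0.929. Among all genes 4.73% were at least 2-fold lower there, and 11.1% among expressed genes. Lower values of any size were found in 4938 of the 10240 expressed genes. Ppbp rose from 55.8 to 67.6. The part of platelet transcripts in the subset difference of F13a1 was not tested. The 6 B cell genes summed to between 26.2 and 102, the 8 T and NK cell genes to between 0.0815 and 2.35, the 5 erythroid genes found of 8 to between 276.3 and 1583, and the 5 dendritic cell genes to between 31.3 and 196. The erythroid sum was highest in control Ly6Clo, the library in which Hp was lowest. Hba-a2 made up most of it, at 1171 there and between 89.4 and 183 in the other libraries. Hbb-bt was also highest there, at 394, while Hbb-bs was lowest there, at 11.1. A link between Hp and erythroid transcripts was not tested.

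**Figure D4:**
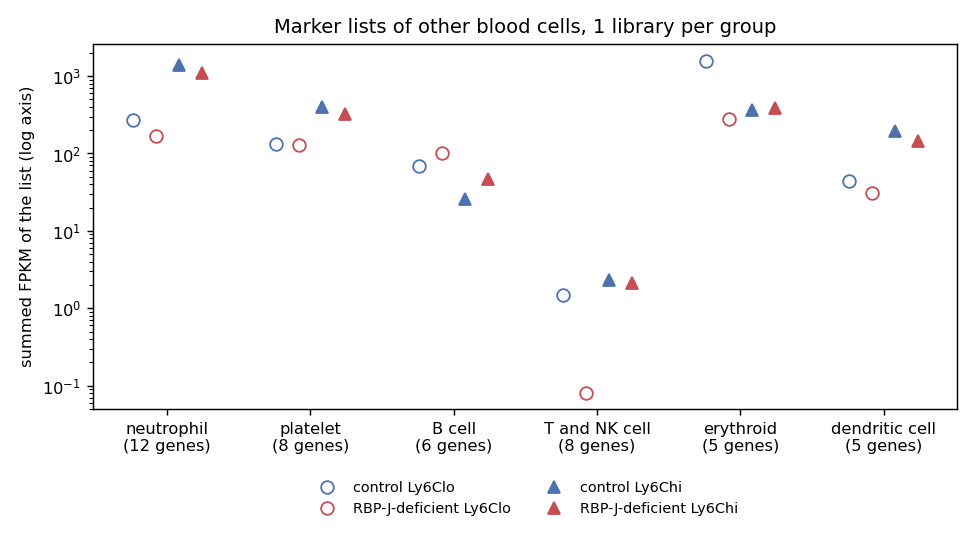
Summed FPKM of marker lists of other blood cells on a log axis, 1 point per library, symbols as in the plot of marker levels. Neutrophil and platelet sums are higher in both Ly6Chi libraries, reaching 1387 and 395 in control, and the erythroid sum is highest in control Ly6Clo at 1583.

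GC content of transcripts also moved with genotype. Across 6086 genes whose mean FPKM reached 5, Spearman's rho of the log2 ratio of RBP-J-deficient over control with GC was -0.37 in Ly6Clo and -0.29 in Ly6Chi. These are values across genes of single libraries, and genes are not replicates. The 9 markers had a GC content between 43.7% for Vcan and 56.2% for Hp. With the trend subtracted, 6 of 9 were at least 2-fold higher in RBP-J-deficient Ly6Clo, against 3.53% of all genes. Chil3 then had a log2 ratio of 0.77.

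Because RBP-J binds DNA, the 250 bases before the transcription start were searched on both strands for its core letters TGGGAA. RefSeq promoter sequences (GRCm38.p6) matched 8 of the 9 genes, with 11 starts in all. The letters occurred before 6 of the 11 starts, belonging to Ly6c2, Chil3, F13a1, Vcan and Lyz2, against 21.6% of all 32851 promoters. Some of these starts overlap, as do those of Ly6c2, so they are not separate cases. The C/EBP letters TTGCNNAA occurred before 1 start, of Lyz1, against 9.56% of all promoters, and the PU.1 letters GAGGAAGT before 3 starts, of Ly6c1 and Ly6c2, against 2.44%. Neither of these strings occurred in the windows shown here. A Ly6c2 window with 1 match and the PU.1 letters holds no annotated exon and is not printed. The windows of Chil3, with 2 matches, and Vcan, with 1, also hold no annotated exon and are printed. Matches are in capitals (TTCCCA is the same core on the other strand). Both read 5′ to 3′ on the minus strand, chr3:106167565-106167814 and chr13:89742513-89742762. A match is a string of letters and does not show binding.
Chil3: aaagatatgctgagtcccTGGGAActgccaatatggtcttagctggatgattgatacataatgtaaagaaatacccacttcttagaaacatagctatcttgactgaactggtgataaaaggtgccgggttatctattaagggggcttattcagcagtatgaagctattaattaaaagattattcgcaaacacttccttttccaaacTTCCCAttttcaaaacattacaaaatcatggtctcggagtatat
Vcan: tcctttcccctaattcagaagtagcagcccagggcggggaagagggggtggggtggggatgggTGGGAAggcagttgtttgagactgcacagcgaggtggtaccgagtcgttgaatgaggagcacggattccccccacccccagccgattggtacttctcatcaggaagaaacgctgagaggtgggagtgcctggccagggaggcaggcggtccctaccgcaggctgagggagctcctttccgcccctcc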

How the data were processed

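RNA-seq libraries of sorted blood monocytes, 1 per genotype and subset, were paired-end sequenced on an Illumina HiSeq2500. The authors deposited FPKM values per gene for all 6 pairs of the 4 libraries, in the layout of Cuffdiff. The submitters' processing notes name CASAVA 1.8, TopHat2 2.1.0, Cufflinks 2.2.1 and build mm10 without their roles. The same table holds fold changes, p-values and q-values of single libraries, which were not used. The 9 genes and the gene lists were chosen with earlier results of these data known.

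The value of a gene in a library was read from every pair and the highest was kept, which matters only for genes whose estimate failed in some pair and for none of the 9. Log2 ratios used (FPKM + 1). A gene counted as past a threshold at a ratio of 5.7 or 0.2, the study's fold thresholds, or of 2 or 0.5. The study's rule also held a p-value limit, which was not applied here. No p-value was computed, because each group has 1 library. FPKM without counts gives no depth, so no interval is given. Coordinates are the deposited ones, made 1-based, and mm10 is GRCm38. Transcripts were taken from GENCODE and promoters from RefSeq. The 3 nearest genes to each marker, the list genes of highest mean level, and all Ly6 and chitinase-like genes with an FPKM of at least 1 could be named, and 1 gene that this rule names is not reported here. The ratio and nearest-gene procedures were tested on simulated data. Alternatives covered the pseudocount, scaling, thresholds and a lowess correction for GC (fraction 0.3, 3 iterations), the last chosen after seeing the data. The software was statsmodels 0.14.6, scipy 1.17.1, pandas 2.3.3, numpy 2.4.6 and matplotlib 3.10.9 under Python 3.11.15.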

Additional observations from a re-analysis of the deposited data

Results flagged for a closer look

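For 5 of the 9 marker genes the genotype difference pointed in opposite directions in the Ly6Clo and Ly6Chi subsets, and this difference between subsets was not tested. The log2 ratios of RBP-J-deficient over control in Ly6Clo and in Ly6Chi were 2.86 and -0.76 for F13a1, 2.73 and -0.34 for Ly6c2, and 1.74 and -0.37 for Lyz1. They were 1.78 and -0.02 for Ly6c1 and 0.40 and -0.18 for Vcan, whose values in Ly6Chi lay close to 0.

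The subset difference pointed in opposite directions in the 2 genotypes for both lysozyme genes, which was not tested either. The log2 ratio of Ly6Chi over Ly6Clo was 0.32 in control mice and -1.79 without RBP-J for Lyz1, and 0.70 and -0.39 for Lyz2.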

How the results depend on the processing

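Of 216 log2 ratios of single marker genes under other settings, 204 kept their direction and their side of 2-fold, and the medians over the 9 genes did so in all 24 cases. In RBP-J-deficient over control Ly6Clo, Ly6c1 fell below 2-fold at 0.78 with a pseudocount of 5 and Vcan rose above it at 1.76 with 0.1. Chil3 fell below it at 0.80 under TPM, 0.92 under housekeeping scaling and 0.77 with the GC trend subtracted, and Hp at 0.99 under TPM. Cd177 turned to 0.12 with the GC trend subtracted. In Ly6Chi, Chil3 turned to -0.00049 under housekeeping scaling and -0.015 with the GC trend subtracted, and Hp to -0.0041 under TPM and -0.027 under housekeeping scaling. Hp in Ly6Chi over Ly6Clo of RBP-J-deficient mice turned to -0.043 with the GC trend subtracted. The causes were not tested. Under 5.7-fold, 2 genes were higher in RBP-J-deficient Ly6Clo, which became 7 at 2-fold, 0 with a pseudocount of 5 and 1 under TPM. The 2-fold rule also added 1 gene lower in RBP-J-deficient Ly6Chi and 1 lower in Ly6Chi than Ly6Clo of RBP-J-deficient mice, where the stricter rule gave 0. Ranked by correlation in place of distance, 1 of the 27 nearest genes was shared, since correlation ignores the size of a difference. The counts over all genes moved with the threshold and pseudocount too: 28 genes higher in RBP-J-deficient Ly6Clo became 919 at 2-fold. No paired analysis was possible because the labels give no replicate numbers to pair by and each group has 1 library, and with 1 library per group none could be left out. Depth is unknown, so values below an FPKM of 1, as for Ly6c1, F13a1 and Vcan in control Ly6Clo, have no stated precision.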
